A study of Homo sapiens with 27 samples.

Results

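The E2F transcription factors and the retinoblastoma (RB) family were described as 10 genes: E2F1, E2F2, E2F3, E2F4, E2F5, E2F7, E2F8, RB1, RBL1 and RBL2. They were taken by gene symbol from a table of 40487 rows, and all 10 passed the filter on low counts that left 16610 rows. The cells were MCF10A, an established, non-tumorigenic line of human mammary epithelium. The study, whose title asks about signals that combine non-additively, measured polyadenylated RNA in 27 libraries. Before the experiment all cells were grown with 20 ng/ml epidermal growth factor (EGF), horse serum, hydrocortisone, cholera toxin and insulin. They were seeded on collagen and held for 18 h in medium without growth factors. Ligands were then given for 24 h at 10 ng/ml each: EGF, OSM (oncostatin M, of the interleukin-6 cytokine family) or transforming growth factor beta (TGFB). The 9 groups of 3 libraries were T0 (no treatment, 0 h), PBS (phosphate-buffered saline, 24 h), EGF, OSM, TGFB, EGF+OSM, EGF+TGFB, OSM+TGFB and EGF+OSM+TGFB. A single cell line was used, and nothing in the labels says whether the 3 libraries of a group came from separate cultures, so p-values measure the spread between these libraries, which may be technical.

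E2F proteins bind DNA with a partner of the DP family and control genes needed to enter and pass through S phase. E2F1, E2F2 and E2F3 are known mainly as activators, E2F4 and E2F5 as factors that repress with pocket proteins in resting cells, and E2F7 and E2F8 as atypical repressors that bind without a DP partner. The pocket proteins are pRB (from RB1), p107 (from RBL1) and p130 (from RBL2). They hold E2F factors back until cyclin-dependent kinases phosphorylate them, and p130 is the form best known from quiescent cells, where it joins the MuvB core in the DREAM complex. In mammary epithelial cells EGF is known to drive cell division and TGFB to arrest it in G1. Transcript levels do not show phosphorylation or protein amount, and in bulk RNA fewer cells in a phase and less RNA per cell cannot be told apart.

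Several of these genes are textbook E2F targets themselves, so the sequences just before their starts are shown for those with an E2F word. A search of 250 bases upstream of each start, in RefSeq promoters of GRCh38.p14, used 4 words on both strands: TTTCGCGC, TTTGGCGC, TTTCCCGC and TTTGCCGC. The table held 10 promoters of 8 of these genes. A word was present in 4 of those 10 promoters (E2F1, E2F2, the first of E2F3, and RBL1), against 2.79% of all 35116 promoters. The 120 bases before the start are printed 5′ to 3′ on the gene's strand, with the words in capitals. E2F7, which had the highest fold change with EGF, is shown beside them as a promoter with none of the 4 words.
E2F1, chr20:33686386-33686505, minus strand: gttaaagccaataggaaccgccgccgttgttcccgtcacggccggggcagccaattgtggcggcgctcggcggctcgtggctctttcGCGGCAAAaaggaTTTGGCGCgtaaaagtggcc
E2F2, chr1:23531234-23531353, minus strand: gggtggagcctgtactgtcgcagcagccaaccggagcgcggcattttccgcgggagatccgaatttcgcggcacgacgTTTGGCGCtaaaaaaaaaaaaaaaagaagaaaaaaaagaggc
E2F3, chr6:20401759-20401878, plus strand: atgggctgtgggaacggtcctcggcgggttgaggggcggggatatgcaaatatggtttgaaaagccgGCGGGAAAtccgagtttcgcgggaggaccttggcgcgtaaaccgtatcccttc
RBL1, chr20:37095998-37096117, minus strand: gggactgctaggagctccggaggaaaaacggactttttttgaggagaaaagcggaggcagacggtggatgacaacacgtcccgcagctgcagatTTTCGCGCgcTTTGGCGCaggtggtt
E2F7, chr12:77065570-77065689, minus strand: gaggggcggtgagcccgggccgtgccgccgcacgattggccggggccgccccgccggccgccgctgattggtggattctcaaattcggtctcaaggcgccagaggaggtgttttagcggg
In E2F1 the words lie 33 to 26 and 20 to 13 bases before the start, and in RBL1 26 to 19 and 16 to 9 bases before it. E2F2 has its word at 42 to 35 bases and E2F3 at 53 to 46 bases. The words found did not overlap each other. E2F5 and E2F8 were not searched. The promoters of E2F4, E2F7, RB1 and RBL2 in the table held none. The one listed for RB1 lies inside the gene rather than at its 5′ end. Those listed for RBL2 also lie inside its annotated gene span. The cell cycle homology region (CHR) words TTTGAA and TTCGAA, sought likewise, were found in the first promoter of E2F3 and in none of the other 9 promoters searched, and in 14.3% of all promoters. A match of letters is a description of the sequence and not a measured binding site.

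Depth per library lay between 30.1 and 52.9 M (mega) counts. The 7 epithelial markers summed to between 8493 and 21590 CPM (counts per 1 M counts) in every library. In PBS the sum was 9994 to 11610 CPM, in EGF 8493 to 9393 and in OSM 17060 to 17430, and its part in the differences described here was not tested. Markers of other cell types (PTPRC, PECAM1, CDH5, PDGFRB, DES) summed to at most 2.55 CPM. Within the OSM group replicate 3 held the highest value for 9 of the 10 genes and the lowest for RBL2. Replicate 3 was also highest for 8 of the 10 in EGF+OSM, EGF+TGFB and OSM+TGFB, for 7 with the 3 ligands and for 6 in EGF. In T0, PBS and TGFB it was highest for 5, 4 and 4. Replicate 2 was lowest for 6 of the 10 in T0, PBS and EGF+OSM and for 8 in EGF and EGF+TGFB. It was lowest for 7 in OSM and with the 3 ligands, for 4 in OSM+TGFB and for 2 in TGFB. Values without OSM replicate 3 are given below where they matter. All comparisons with PBS share the same 3 PBS libraries.

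Per length of the canonical transcript, E2F4 was the most abundant E2F gene in all 9 groups and RB1 or RBL2 the most abundant pocket protein gene. In PBS, E2F4 stood at 16.1 ± 0.646 CPM per kb (SD, n = 3), RBL2 at 16.6 ± 0.860 and RB1 at 11.7 ± 0.698. E2F3 followed at 4.30 ± 0.174, E2F2 at 1.91 ± 0.285, E2F5 at 1.62 ± 0.258, RBL1 at 1.17 ± 0.124 and E2F1 at 1.10 ± 0.228. E2F2 is the sum of 2 identical rows, and 1 row alone gives 0.955 ± 0.143, which would place it below E2F5, RBL1 and E2F1. The atypical genes were lowest, E2F8 at 0.511 ± 0.118 and E2F7 at 0.405 ± 0.110 CPM per kb. E2F4 made up 62.1 ± 2.29% of the summed level of the 7 E2F genes in PBS, 50.8 ± 1.81% in EGF and 67.2 ± 0.981% in OSM+TGFB. EGF held its lowest mean share and OSM+TGFB its highest. E2F1 made up 4.24 ± 0.763% in PBS and 10.7 ± 0.593% in EGF. E2F7 went from 1.56 ± 0.438% to 11.9 ± 0.901%, and its 3 shares in EGF lay above all 3 in PBS.

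**Figure D1:**
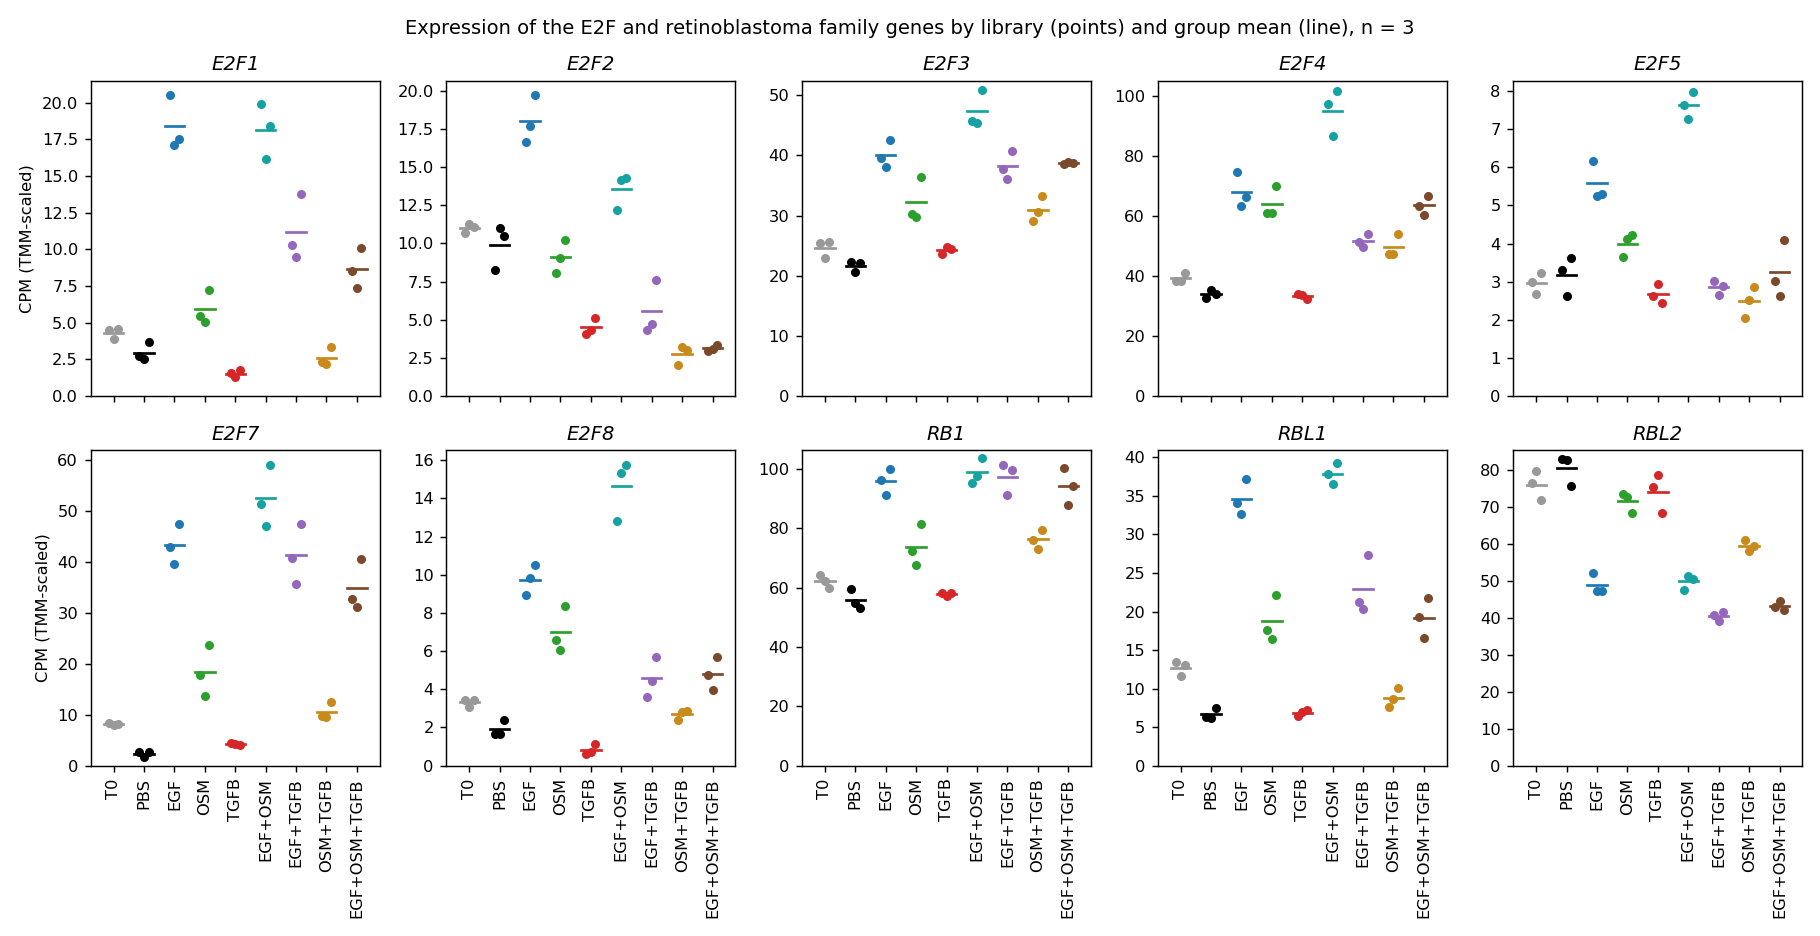
Level of each gene (CPM on TMM-scaled library sizes, linear axis from 0) in the 9 groups; points are the 3 libraries and the line is their mean. E2F1, E2F7 and RBL1 are low in PBS and high in both EGF and EGF+OSM, E2F2 is lowest in the groups with TGFB, and RBL2 has its lowest values in the 4 groups with EGF.

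EGF moved all 10 genes. At an adjusted p under 0.05 by edgeR's quasi-likelihood test, 9 were higher than in PBS and RBL2 was lower. Of all tested rows, 33.8% were higher and 37% lower, 70.8% in all. The median log2 fold change of the 10 genes was 0.94, against -0.07 over all rows. OSM raised 7 and lowered RBL2, where 32.4% of all rows were higher and 28.5% lower (61% in all). TGFB alone raised E2F7 and lowered E2F1, E2F2 and E2F8, where 18.9% of all rows were higher and 14.6% lower (33.5% in all), so that the share of the 10 genes called was near that of all rows. The 4 combinations called 8 to 10 genes: 9 higher and 1 lower for EGF+OSM (36.6% and 38.4% of all rows, 75% in all), 7 and 2 for EGF+TGFB (35% and 36.3%, 71.3%), 6 and 2 for OSM+TGFB (33.1% and 30.5%, 63.5%) and 7 and 2 for the 3 ligands together (36.6% and 35.5%, 72.1%).

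**Figure D2:**
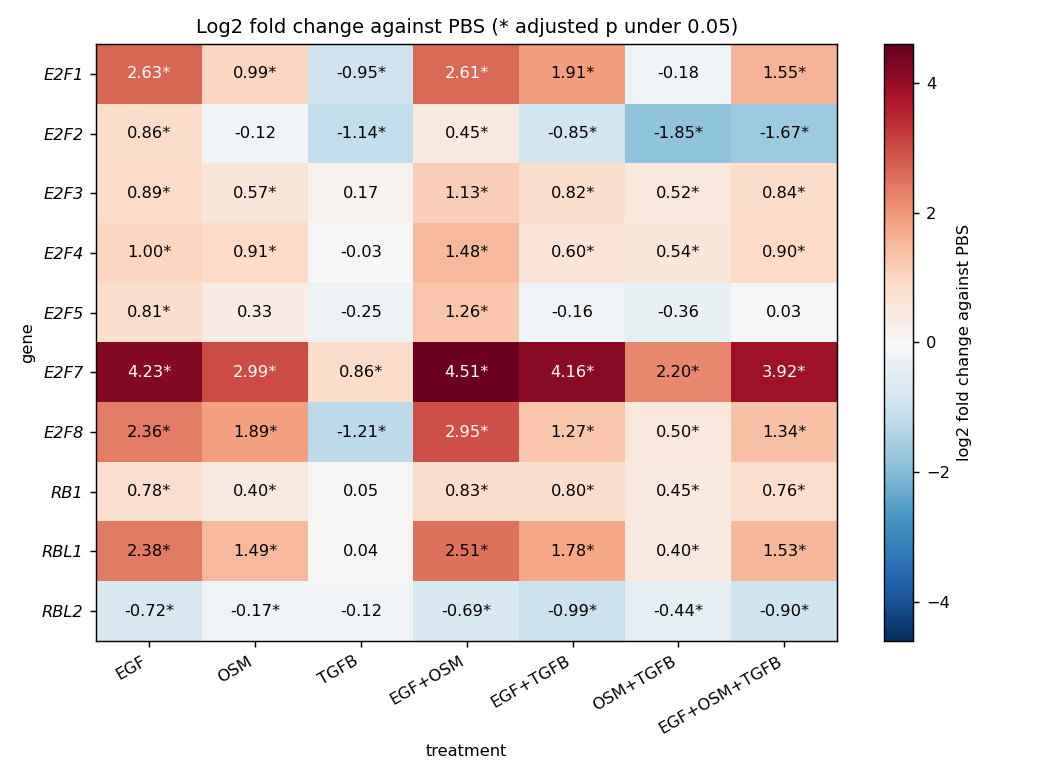
Log2 fold change of each gene (rows) against PBS for the 7 treatments (columns), red for higher and blue for lower; an asterisk marks an adjusted p under 0.05. E2F7 has the highest value in each of the 7 columns (0.86 to 4.51), and RBL2 is below 0 in all of them (-0.12 to -0.99).

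E2F1 (ENSG00000101412, chromosome 20, 33675477 to 33686385, minus strand, 7 exons) is the factor most often tied to S-phase entry. Its 3 libraries read 2.72, 2.52 and 3.67 CPM in PBS and 20.5, 17.1 and 17.5 CPM in EGF. With OSM they read 5.43, 5.07 and 7.24 CPM and with TGFB 1.59, 1.27 and 1.75 CPM. All libraries of EGF and of OSM lay above those of PBS, and all those of TGFB below. The log2 fold changes were 2.63 ± 0.18 (SE) for EGF (adjusted p 5.33e-12), 0.99 ± 0.18 for OSM (5.16e-05) and -0.95 ± 0.20 for TGFB (0.000738). OSM+TGFB, at 2.36, 2.16 and 3.34 CPM, overlapped PBS (log2 fold change -0.18 ± 0.20, adjusted p 0.439). In rising order of means the groups were TGFB, OSM+TGFB, PBS, T0, OSM, EGF+OSM+TGFB, EGF+TGFB, EGF+OSM and EGF. The neighbours OSM+TGFB and PBS overlapped, as did EGF+OSM+TGFB and EGF+TGFB, and EGF+OSM and EGF.

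E2F2 (ENSG00000007968, chromosome 1, 23506438 to 23531233, minus strand, 7 exons) is an activator of the same subgroup. The symbol had 2 rows with identical values in every library, which were summed, so its levels may be counted double while its fold changes are not affected. Its SEs and adjusted p-values rest on the summed counts, and the tests were not repeated with 1 row. The libraries read 8.24, 11.02 and 10.5 CPM in PBS, 16.6, 17.7 and 19.7 CPM in EGF and 8.08, 9.04 and 10.2 CPM in OSM. With TGFB they read 4.07, 4.32 and 5.14 CPM and with OSM+TGFB 2.02, 3.22 and 3.02 CPM. EGF lay above PBS without overlap, OSM overlapped PBS, and every library with TGFB was below every PBS library. The log2 fold change was 0.86 ± 0.16 for EGF (adjusted p 4.11e-05), -0.12 ± 0.16 for OSM (0.529) and -1.14 ± 0.17 for TGFB (9.02e-06). It was -1.85 ± 0.18 in OSM+TGFB and -1.67 ± 0.18 with the 3 ligands. In EGF+OSM it was 0.45 ± 0.16 (adjusted p 0.0147), and without PBS replicate 1 that became 0.33 with an adjusted p of 0.0914. Means rose in the order OSM+TGFB, EGF+OSM+TGFB, TGFB, EGF+TGFB, OSM, PBS, T0, EGF+OSM and EGF. Overlaps fell between OSM+TGFB and EGF+OSM+TGFB, between TGFB and EGF+TGFB, and along OSM, PBS and T0.

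Set against each other per length, E2F1 over E2F2 was 0.584 ± 0.125 in PBS (SD, n = 3), 1.99 ± 0.349 in EGF, 3.99 ± 0.550 in EGF+TGFB and 5.34 ± 0.616 with the 3 ligands. All 3 ratios in EGF were above those in PBS (exact two-sided permutation p of 0.1, the smallest that 3 against 3 libraries allow). By the same test EGF+TGFB against EGF also gave 0.1. TGFB alone, at 0.661 ± 0.0933, gave 0.6 against PBS. OSM+TGFB, at 1.89 ± 0.524, gave 0.3 against OSM, at 1.25 ± 0.149. If the identical rows of E2F2 count the same reads, every one of these ratios would be 2 times larger.

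E2F3 (ENSG00000112242, chromosome 6, 20401879 to 20493714, plus strand, 7 exons), the third activator, moved in a narrower range. Its libraries read 22.2, 20.7 and 22.1 CPM in PBS, 39.5, 38.1 and 42.5 CPM in EGF, 30.3, 29.8 and 36.4 CPM in OSM and 23.6, 24.8 and 24.5 CPM in TGFB. EGF and OSM lay above PBS throughout, by 0.89 ± 0.07 and 0.57 ± 0.07 on the log2 scale (adjusted p 9.03e-11 and 2.82e-07). Although no TGFB library overlapped PBS, the difference of 0.17 ± 0.07 did not pass the test (adjusted p 0.0875). It passed when only the compared groups were fitted (0.16, 0.0491). From the lowest mean the order was PBS, TGFB, T0, OSM+TGFB, OSM, EGF+TGFB, EGF+OSM+TGFB, EGF and EGF+OSM. TGFB overlapped T0, and the 5 groups from OSM+TGFB to EGF each overlapped the next.

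E2F4 (ENSG00000205250, chromosome 16, 67192155 to 67198918, plus strand, 10 exons), the main repressive E2F of resting cells, was also higher with EGF, OSM and their combination. The libraries read 32.7, 35.4 and 33.97 CPM in PBS, 74.7, 63.3 and 66.6 CPM in EGF, 61.03, 60.97 and 70.04 CPM in OSM and 97.4, 86.7 and 102 CPM in EGF+OSM. All 3 of those treatments were above every PBS library, and EGF+OSM was above every library of EGF and of OSM. The log2 fold changes were 1.00 ± 0.07, 0.91 ± 0.07 and 1.48 ± 0.07 (adjusted p 7.95e-12, 7.53e-11 and 4.5e-15). TGFB alone, at 34.02, 33.8 and 32.3 CPM, overlapped PBS (-0.03 ± 0.07, adjusted p 0.808). Its means rose from TGFB through PBS, T0, OSM+TGFB, EGF+TGFB, EGF+OSM+TGFB, OSM and EGF to EGF+OSM. TGFB and PBS overlapped, OSM+TGFB overlapped EGF+TGFB, and so did EGF+OSM+TGFB, OSM and EGF in turn.

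E2F5 (ENSG00000133740, chromosome 8, 85177154 to 85217158, plus strand, 8 exons), its close relative, was rarer, between 2.05 and 7.97 CPM in the 27 libraries. EGF, at 6.17, 5.25 and 5.30 CPM, was above PBS, at 3.30, 2.63 and 3.62 CPM, in every library (log2 fold change 0.81 ± 0.15, adjusted p 4.59e-05). In OSM it was 3.99 ± 0.308 CPM (SD, n = 3), 0.33 ± 0.15 above PBS (adjusted p 0.068), and that difference passed without PBS replicate 3 (0.43, adjusted p 0.036). In OSM+TGFB the difference of -0.36 ± 0.16 did not pass (adjusted p 0.0537), but did without PBS replicate 2 (-0.48, 0.0168) or OSM+TGFB replicate 3 (-0.49, 0.0195). It also passed with upper-quartile scaling (-0.44, 0.0193) and with DESeq2 (-0.38, 0.0472). EGF+OSM gave its highest libraries, 7.64, 7.26 and 7.97 CPM, with no overlap with EGF. The other groups, OSM+TGFB, TGFB, EGF+TGFB, T0, PBS, EGF+OSM+TGFB and OSM in rising order, each overlapped the next.

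E2F7 (ENSG00000165891, chromosome 12, 77021248 to 77065569, minus strand, 13 exons), an atypical repressor, had the highest fold change of the 10 genes with each of the 7 treatments. Its libraries read 2.75, 1.59 and 2.62 CPM in PBS and 42.96, 39.6 and 47.4 CPM in EGF. OSM gave 17.8, 13.7 and 23.6 CPM and TGFB 4.38, 4.17 and 3.96 CPM. Each of these 3 treatments lay wholly above PBS. EGF raised it 18.8-fold (log2 fold change 4.23 ± 0.20, adjusted p 5.71e-14), OSM 7.96-fold (2.99 ± 0.20, 2.75e-11) and TGFB 1.81-fold (0.86 ± 0.23, 0.00514). No other gene of the 10 was called higher with TGFB alone, though all 3 libraries of E2F3 lay above PBS there, and E2F3 was called higher when only the compared groups were fitted (0.16, adjusted p 0.0491). The order of means was PBS, TGFB, T0, OSM+TGFB, OSM, EGF+OSM+TGFB, EGF+TGFB, EGF and EGF+OSM. The first 5 groups did not overlap each other, and the 4 groups with EGF each overlapped the next.

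E2F8 (ENSG00000129173, chromosome 11, 19224063 to 19241620, minus strand, 13 exons) is the paralog of E2F7, and with TGFB alone against PBS the pair moved in opposite directions. Its libraries read 1.65, 1.64 and 2.40 CPM in PBS, 8.92, 9.81 and 10.5 CPM in EGF, 6.60, 6.07 and 8.37 CPM in OSM and 0.626, 0.719 and 1.12 CPM in TGFB. The TGFB values rest on 24, 30 and 41 counts. EGF and OSM lay above PBS and TGFB below it in every library, by 2.36 ± 0.19, 1.89 ± 0.19 and -1.21 ± 0.22 (adjusted p 9.16e-11, 7.32e-09 and 0.000139). OSM+TGFB overlapped PBS at 2.38, 2.79 and 2.87 CPM. Its call there, 0.50 ± 0.20 with an adjusted p of 0.0311, was lost without PBS replicate 1 (0.42, 0.115), PBS replicate 2 (0.41, 0.126), OSM+TGFB replicate 2 (0.45, 0.0936) or OSM+TGFB replicate 3 (0.43, 0.11). It was also lost with upper-quartile scaling (0.42, 0.0655) and when only the compared groups were fitted (0.48, 0.0683). Means rose in the order TGFB, PBS, OSM+TGFB, T0, EGF+TGFB, EGF+OSM+TGFB, OSM, EGF and EGF+OSM, with overlaps between PBS and OSM+TGFB and between EGF+TGFB and EGF+OSM+TGFB.

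The ratio of E2F7 to E2F8 per length was 0.805 ± 0.240 in PBS, 2.88 ± 0.255 in EGF, 3.52 ± 1.14 in TGFB and 5.96 ± 1.19 in EGF+TGFB (SD, n = 3). It was higher in TGFB than in PBS, and in EGF+TGFB than in EGF, in every library (exact two-sided permutation p of 0.1 for each, the smallest possible). The sum of both atypical genes over the sum of the 3 activators was 0.125 ± 0.0216 in PBS, 0.558 ± 0.0313 in EGF and 0.698 ± 0.0392 in EGF+OSM. With 1 of the identical rows of E2F2 the ratios were 0.143 ± 0.0230, 0.617 ± 0.0395 and 0.751 ± 0.0450.

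RB1 (ENSG00000139687, chromosome 13, 48303744 to 48599436, plus strand, 27 exons) encodes the retinoblastoma protein, which restrains the activator E2Fs. Its libraries read 59.6, 54.7 and 53.2 CPM in PBS, 96.5, 91.4 and 100.1 CPM in EGF, 72.3, 67.7 and 81.4 CPM in OSM and 58.2, 57.3 and 58.2 CPM in TGFB. EGF and OSM were above every PBS library, by 0.78 ± 0.06 and 0.40 ± 0.06 (adjusted p 9.15e-11 and 6.87e-06), and TGFB overlapped PBS (0.05 ± 0.06, 0.578). The groups with EGF held the 4 highest means, between 94.3 and 98.9 CPM, and overlapped one another in turn. Below them came OSM+TGFB and OSM, which overlapped, then T0, and last TGFB and PBS, which overlapped.

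RBL1 (ENSG00000080839, chromosome 20, 36996349 to 37095997, minus strand, 22 exons) encodes p107, the pocket protein that is made as cells enter the cycle. Its libraries read 6.32, 6.22 and 7.48 CPM in PBS, 34.04, 32.7 and 37.2 CPM in EGF, 17.7, 16.5 and 22.2 CPM in OSM and 6.47, 6.93 and 7.16 CPM in TGFB. EGF and OSM lay wholly above PBS and TGFB overlapped it. EGF raised RBL1 5.19-fold (log2 fold change 2.38 ± 0.13, adjusted p 6.53e-14) and OSM 2.81-fold (1.49 ± 0.13, 3.79e-10). TGFB alone gave 0.04 ± 0.13 (0.86). OSM+TGFB was at 7.66, 8.69 and 10.04 CPM, 0.40 ± 0.13 above PBS (adjusted p 0.0112). That call was lost without PBS replicate 2 (0.35, adjusted p 0.0511) or OSM+TGFB replicate 3 (0.27, 0.116). The order was PBS, TGFB, OSM+TGFB, T0, OSM, EGF+OSM+TGFB, EGF+TGFB, EGF and EGF+OSM, where PBS overlapped TGFB, EGF overlapped EGF+OSM, and OSM, EGF+OSM+TGFB and EGF+TGFB overlapped in turn.

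RBL2 (ENSG00000103479, chromosome 16, 53433977 to 53491648, plus strand, 22 exons) encodes p130 and ran the other way. Its libraries read 82.96, 82.7 and 75.6 CPM in PBS, 51.9, 47.1 and 47.2 CPM in EGF, 73.5, 72.7 and 68.3 CPM in OSM and 75.2, 78.5 and 68.2 CPM in TGFB. EGF and OSM were below every PBS library, and TGFB overlapped PBS. The log2 fold change was -0.72 ± 0.06 for EGF (adjusted p 3.3e-11), -0.17 ± 0.05 for OSM (0.01) and -0.12 ± 0.05 for TGFB (0.097). The TGFB difference passed without TGFB replicate 2 (-0.17, adjusted p 0.0393) and without PBS replicate 3 (-0.16, 0.0393). Its means rose from EGF+TGFB through EGF+OSM+TGFB, EGF, EGF+OSM, OSM+TGFB, OSM, TGFB and T0 to PBS. EGF overlapped EGF+OSM, and OSM, TGFB, T0 and PBS overlapped in turn.

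The makeup of the pocket protein transcripts is given as shares of their summed level per length. In PBS RBL2 made up 56.2 ± 1.11%, RB1 39.8 ± 0.961% and RBL1 4.003 ± 0.599% (SD, n = 3). In EGF the shares were 27.7 ± 1.47%, 55.5 ± 0.782% and 16.8 ± 0.686%. OSM lay between, with RBL2 at 44.1 ± 3.44% and RBL1 at 9.82 ± 1.15%. The 3 OSM libraries had RB1 shares of 45.4, 44.3 and 48.7% and RBL2 shares of 45.3, 46.7 and 40.2%. RB1 was well above RBL2 in replicate 3, equal within 0.1 percentage points in replicate 1 and below it in replicate 2. RBL1 over RBL2 was 0.0712 ± 0.0115 in PBS, 0.225 ± 0.0454 in OSM and 0.609 ± 0.0581 in EGF, with no overlap between these groups. EGF and OSM each gave an exact two-sided permutation p of 0.1 against PBS, the smallest possible, and TGFB, at 0.0795 ± 0.00886, gave 0.3.

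**Figure D3:**
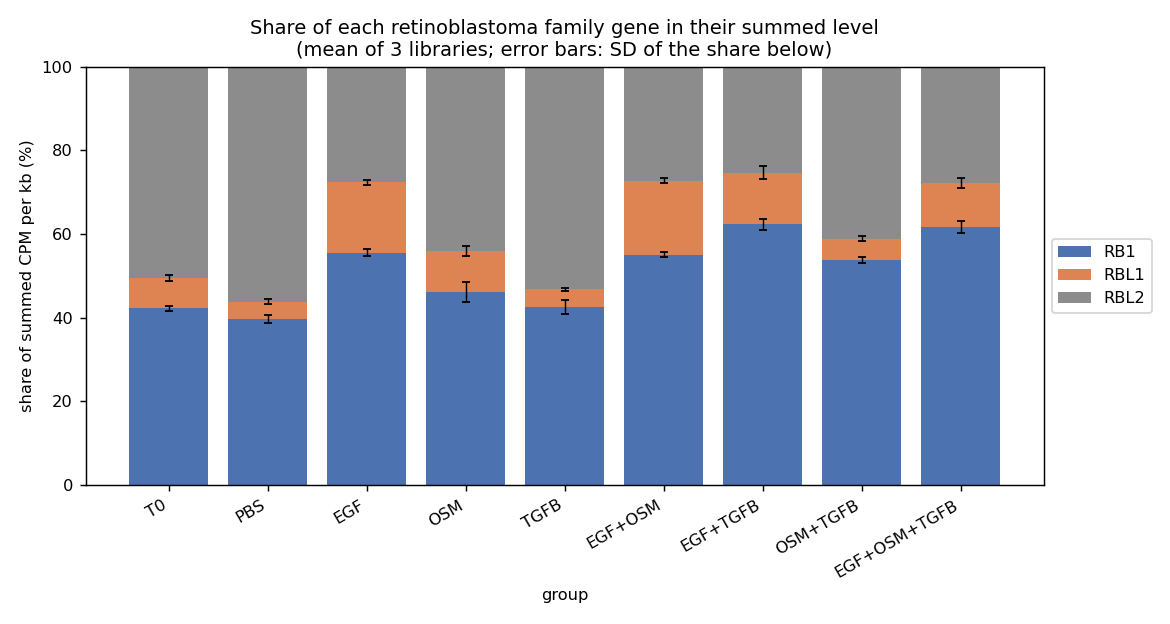
Share of RB1, RBL1 and RBL2 in their summed CPM per kb (%, stacked to 100) in the 9 groups, as means of 3 libraries with SD bars. RBL2 holds the largest share in T0, PBS and TGFB (50.6 to 56.2%), and RB1 has the largest mean share in the other groups, which in OSM rests on replicate 3.

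Over the 24 h without an added ligand, 5 of the genes fell between T0 and PBS and none rose, where 17.8% of all rows were lower, 15.1% higher and 32.9% called. E2F7 fell from 8.33, 7.91 and 8.09 to 2.75, 1.59 and 2.62 CPM (log2 fold change -1.82 ± 0.21, adjusted p 8.09e-07). RBL1 fell from 13.4, 11.6 and 13.1 to 6.32, 6.22 and 7.48 CPM (-0.93 ± 0.13, 4.94e-06), and E2F8 fell by 0.81 ± 0.19 on the log2 scale (0.00227). In these 3 genes no PBS library reached a T0 library. The same held for E2F1 and E2F4, and for E2F3 and RB1, which were not called. E2F1 (-0.54 ± 0.18, adjusted p 0.0265) and E2F4 (-0.21 ± 0.07, 0.0275) passed narrowly. The E2F1 call was lost without T0 replicate 1 (-0.51, adjusted p 0.0718), T0 replicate 3 (-0.49, 0.0862), PBS replicate 1 (-0.48, 0.0946) or PBS replicate 2 (-0.43, 0.131). The E2F4 call was lost without T0 replicate 3 (-0.17, 0.118), PBS replicate 1 (-0.18, 0.108) or PBS replicate 3 (-0.20, 0.0685), and the count of genes fell to 3 without T0 replicate 3. E2F3 passed without T0 replicate 2 (-0.23, 0.0286) and with rows sharing a symbol summed (-0.19, 0.0476), and RB1 without PBS replicate 1 (-0.20, 0.0327). Against T0, EGF raised 9 genes and lowered RBL2, where 31.6% of all rows were higher and 34.9% lower (66.5% in all). E2F7 was 2.42 ± 0.17 above T0, and RBL2 had a log2 fold change of -0.64 ± 0.06.

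EGF and OSM both raised most of the family, and they were compared directly. OSM was lower than EGF in 8 genes and higher in RBL2, where 27.6% of all rows were lower and 26.8% higher (54.4% in all). Among the 10 the largest difference was in E2F1 (-1.64 ± 0.17, adjusted p 2.49e-08), with E2F7 (-1.24 ± 0.17), E2F2 (-0.98 ± 0.16) and RBL1 (-0.89 ± 0.12) next. RBL2 was 0.55 ± 0.06 higher in OSM (1.12e-08). E2F4 did not pass (-0.09 ± 0.07, 0.282, 95% interval, not adjusted for the number of rows, -0.24 to 0.05), though without OSM replicate 3 it did (-0.23, adjusted p 0.00941). The E2F3 value moved from -0.32 to -0.48 without that library. The E2F8 call (-0.48 ± 0.18, 0.0252) was lost without OSM replicate 1 (-0.49, adjusted p 0.0505), OSM replicate 2 (-0.43, 0.0745), EGF replicate 2 (-0.47, 0.0546) or EGF replicate 3 (-0.42, 0.0862). Without OSM replicate 3, OSM against PBS still called 8 of the 10 genes, and E2F1 was 0.82 and E2F7 2.76 above PBS.

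OSM added to EGF changed less. Of the 10 genes 4 were higher in EGF+OSM than in EGF and 1 was lower, where 16.6% of all rows were higher and 16.4% lower (33% in all). E2F4 rose by 0.48 ± 0.07 (adjusted p 6.58e-06), E2F8 by 0.59 ± 0.17 (0.0108), E2F5 by 0.45 ± 0.15 (0.0218) and E2F3 by 0.24 ± 0.07 (0.00995), and E2F2 fell (-0.41 ± 0.16, 0.049). Among these calls only that of E2F4 passed in all 6 fits that left out 1 library. The count was 3 without EGF replicate 1 or EGF replicate 3, and 2 without EGF replicate 2 or EGF+OSM replicate 3. E2F2 lost its call without any one of the 6 libraries, with values from -0.47 to -0.34, and without the low-count filter (-0.40, adjusted p 0.0648). E2F3 lost it without EGF replicate 2 (0.21) or EGF+OSM replicate 3 (0.19), E2F5 without EGF replicate 2 (0.41), EGF replicate 3 (0.42) or EGF+OSM replicate 3 (0.42), and E2F8 without EGF replicate 1 (0.53). E2F1, at 19.9, 16.2 and 18.4 CPM against 20.5, 17.1 and 17.5 CPM, did not differ detectably (-0.02 ± 0.16, 95% interval -0.36 to 0.32). EGF added to OSM raised 9 genes and lowered RBL2, where 28.7% of all rows were higher and 30.7% lower (59.4% in all), with E2F1 1.62 ± 0.17 and E2F7 1.52 ± 0.17 higher.

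The single effects of EGF and OSM did not add up on the log2 scale in 8 of the 10 genes. Departure here means what remains when the log2 fold changes of both single ligands are taken from that of the pair, and of all rows 21.9% departed below 0 and 14.6% above (36.5% in all). E2F7 departed most, by -2.72 ± 0.26 (adjusted p 2.91e-08): EGF+OSM gave 4.51 against PBS, and the single ligands 4.23 and 2.99. RBL1 departed by -1.36 ± 0.17 (8.58e-07), E2F8 by -1.30 ± 0.26 (0.000287) and E2F1 by -1.01 ± 0.25 (0.00214). E2F4, RB1 and E2F3 departed by -0.43, -0.36 and -0.33. In all 7 the combination was short of the sum. RBL2, which fell with each ligand, departed upwards by 0.20 ± 0.08 (0.0472), and this call was lost without any one of 9 of the 12 libraries, the exceptions being EGF replicate 1, PBS replicate 3 and EGF+OSM replicate 1, with values from 0.14 to 0.19 where lost. It was also lost when only the compared groups were fitted (0.18, adjusted p 0.0961). E2F2 (-0.29 ± 0.23) and E2F5 (0.12 ± 0.21) did not pass (adjusted p 0.357 and 0.71).

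**Figure D4:**
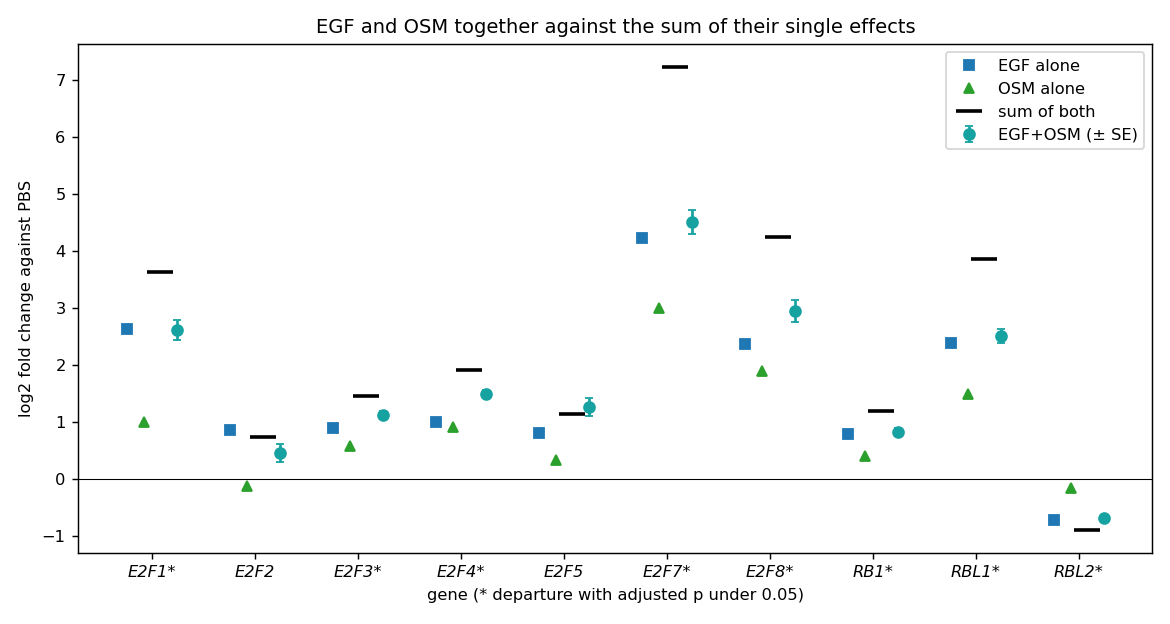
Log2 fold change against PBS with EGF alone (squares), OSM alone (triangles), the sum of both (black dashes) and EGF+OSM (circles, ± SE) for each gene; an asterisk marks a departure with an adjusted p under 0.05. In E2F7, RBL1, E2F8 and E2F1 the circle lies 1.01 or more below the dash, and in E2F5 it lies close to it.

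TGFB called 4 of the family alone and 7 to 9 when added to another ligand. Added to EGF it lowered 7 of the 10 genes and raised none, where 26.4% of all rows were lower and 25.8% higher (52.1% in all). E2F2 fell from 16.6, 17.7 and 19.7 CPM in EGF to 4.35, 4.70 and 7.61 CPM in EGF+TGFB (log2 fold change -1.71 ± 0.17, adjusted p 8.72e-09). E2F8 fell to 3.60, 4.46 and 5.69 CPM (-1.09 ± 0.18, 1.75e-05) and E2F5 to 3.03, 2.65 and 2.88 CPM (-0.97 ± 0.15, 1.11e-05), each with no overlap with EGF. E2F1 (-0.72), RBL1 (-0.60), E2F4 (-0.40) and RBL2 (-0.27) fell less. E2F7, at 40.8, 35.5 and 47.4 CPM against 42.96, 39.6 and 47.4 CPM, overlapped EGF (-0.07 ± 0.16, adjusted p 0.732), as did E2F3 (-0.07 ± 0.07, 0.439) and RB1 (0.02 ± 0.06, 0.809).

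Added to OSM, TGFB lowered 8 of the genes and raised none, where 24.2% of all rows were lower and 24.6% higher (48.8% in all). E2F2 fell by 1.73 ± 0.18, E2F8 by 1.38 ± 0.19, E2F1 by 1.17 ± 0.19 and RBL1 by 1.09 ± 0.13 on the log2 scale (adjusted p 2.7e-08, 1.49e-06, 1.42e-05 and 1.36e-07). E2F7 fell from 17.8, 13.7 and 23.6 to 9.68, 9.44 and 12.6 CPM (-0.79 ± 0.18, 0.000648), so that E2F7, which TGFB raised in PBS, was lowered in OSM. E2F5, E2F4 and RBL2 also fell (log2 fold changes -0.68, -0.37 and -0.27), and E2F3 and RB1 did not pass. With TGFB added to EGF+OSM 9 genes fell, all but RB1, where 28.4% of all rows were lower and 30.4% higher (58.8% in all). E2F2 again had the largest change, -2.12 ± 0.18, from 12.2, 14.2 and 14.3 to 2.99, 3.07 and 3.32 CPM. RB1 differed by -0.07 ± 0.06 (adjusted p 0.37), and by -0.17 (0.0461) without EGF+OSM+TGFB replicate 1. Of the whole family RB1 passed the test of TGFB's effect in none of the 4 settings.

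**Figure D5:**
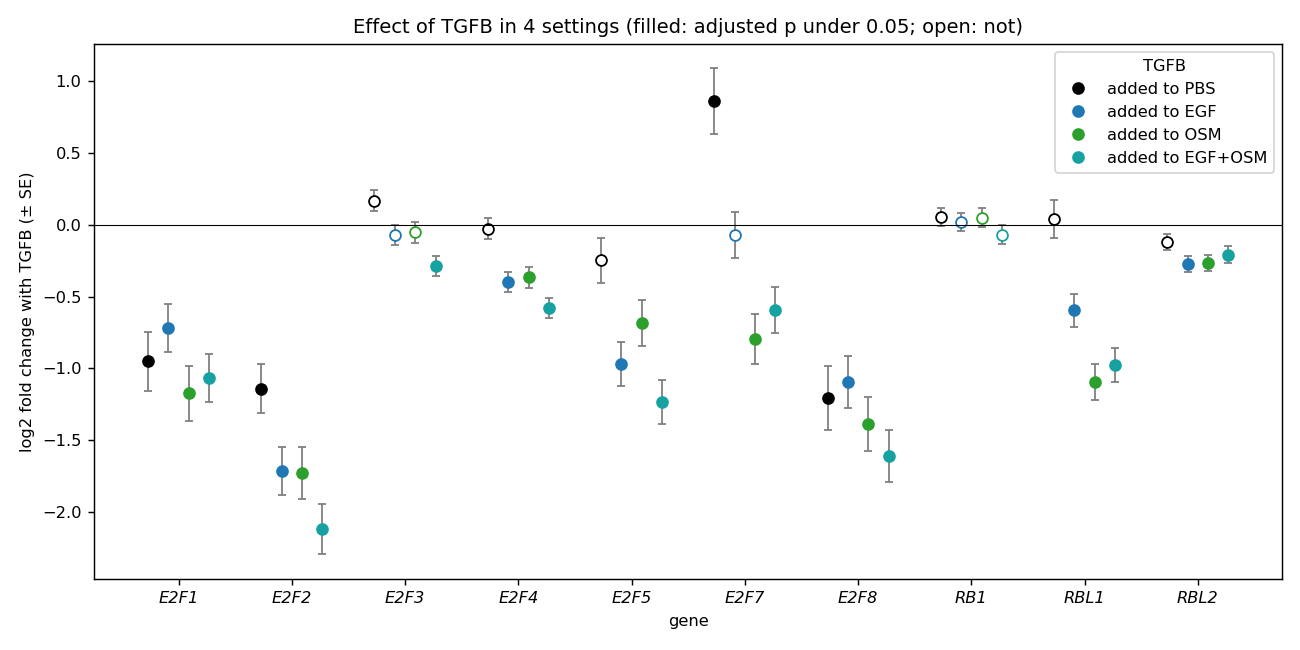
Log2 fold change on adding TGFB to PBS, EGF, OSM or EGF+OSM for each gene (± SE); filled points have an adjusted p under 0.05. E2F1, E2F2 and E2F8 are filled and below 0 in all 4 settings, E2F7 is above 0 in PBS alone, and RB1 is open in all 4.

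Whether the effect of TGFB differed between these settings was tested as a departure. With EGF, 4 genes departed below the sum and none above, where 15.4% of all rows departed below and 12.3% above (27.7% in all). They were E2F4 (-0.37 ± 0.10, adjusted p 0.00743), RBL1 (-0.64 ± 0.18, 0.0092), E2F5 (-0.72 ± 0.22, 0.0159) and E2F7 (-0.93 ± 0.28, 0.015). Without PBS replicate 2 the count was 2, as E2F5 (-0.60, adjusted p 0.0531) and E2F7 (-0.71, 0.0649) were lost. Without EGF+TGFB replicate 3 it was 7, with E2F2 (-0.90), E2F3 (-0.33) and RBL2 (-0.22) added. E2F3 also departed when only the compared groups were fitted (-0.29, adjusted p 0.0197). With OSM, 3 genes departed below and none above, where 12.6% of all rows departed below and 8.85% above (21.5% in all): E2F7 (-1.66 ± 0.29, 0.000269), RBL1 (-1.13 ± 0.18, 0.000105) and E2F4 (-0.34 ± 0.10, 0.0179). E2F1, which TGFB lowered with and without a second ligand, did not depart with EGF (0.23 ± 0.26, 95% interval -0.32 to 0.78) or OSM (-0.22 ± 0.28, 95% interval -0.81 to 0.37).

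The partners of the family were read from a list of 8 genes. TFDP1, which encodes the main DP partner, rose with EGF (1.15 ± 0.06) and OSM (0.70 ± 0.06), from 106 ± 1.34 CPM in PBS to 235 ± 11.8 and 172 ± 11.5 CPM (SD, n = 3). TFDP2, the other DP gene, fell with both (-0.66 ± 0.06 and -0.24 ± 0.06). Of the 8 genes EGF raised 5 and lowered 1, OSM raised 4 and lowered 1, and TGFB called none, where 70.8%, 61% and 33.5% of all rows were called, so that the shares with EGF and OSM were near those of all rows. The MuvB core genes LIN54 and LIN9 rose by 0.97 and 0.94 with EGF. TGFB added to EGF lowered 7 of the 8, where 26.4% of all rows were lower, and raised LIN37 (0.62 ± 0.13).

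Genes that E2F factors are known to drive at the G1/S boundary were higher with each of these ligands, EGF and OSM. Of 24 such genes, 24 rose with EGF and 24 with OSM, where 33.8% and 32.4% of all rows were higher. The median log2 fold changes were 3.20 and 2.12, against -0.07 and 0.00 over all rows. MCM10, a replication factor, went from 0.952 ± 0.111 CPM in PBS to 53.02 ± 2.86 in EGF and 18.8 ± 5.97 in OSM. RRM2, a subunit of ribonucleotide reductase, went from 8.22 ± 1.74 to 314 ± 33.7 and 145 ± 35.9 CPM. With TGFB alone 1 rose (MCM7, 0.42 ± 0.12) and 1 fell (CDT1, -0.56 ± 0.20), where 18.9% of all rows were higher and 14.6% lower. All 24 fell when TGFB was added to EGF, to OSM and to EGF+OSM, where 26.4%, 24.2% and 28.4% of all rows were lower. The medians were -0.94, -1.19 and -1.31, against -0.02, 0.00 and 0.02 over all rows. OSM added to EGF called 1 of the 24 higher and none lower, where 16.6% of all rows were higher and 16.4% lower. E2F words stood in the promoters of 10 of the 20 genes found in the RefSeq table, against 928 of all its 27305 genes.

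Genes listed for the MuvB complex at G2/M, among them that of its partner B-MYB, also rose with EGF and OSM. Each of the 16 passed the test upwards for EGF and likewise for OSM (medians 4.16 and 3.58), and all 16 fell between T0 and PBS (-2.67). Of all rows 33.8% and 32.4% were higher with EGF and OSM, and 17.8% were lower in PBS than in T0. The medians over all rows were -0.07, 0.00 and -0.01. MYBL2, on the list as the gene of the B-MYB partner, went from 3.90 ± 0.905 CPM in PBS to 158 ± 11.7 in EGF and 88.5 ± 18.4 in OSM. AURKB went from 1.32 ± 0.102 CPM in PBS to 42.1 ± 2.50 in EGF and 24.8 ± 3.53 in OSM. TGFB alone lowered 6, among them KIF20A (-0.97 ± 0.26) and CDC20 (-0.82 ± 0.26), and 10 did not pass, where 14.6% of all rows were lower. A CHR word stood in the promoters of 5 of 12 genes found, against 4705 of all 27305 genes.

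Upstream of the pocket proteins, 14 genes of kinases, cyclins and inhibitors were listed and 12 tested, since CDKN2A and CDKN2B had 0 counts in every library, which allows up to 3 counts, or 0.0995 CPM in the shallowest library. A deletion of their shared locus is known in MCF10A cells, so the INK4 inhibitors p16 and p15 cannot be read here. Of the 12, EGF raised 8 and lowered 3, OSM raised 5 and lowered 4, and TGFB raised 1 and lowered 3. Of all rows 70.8%, 61% and 33.5% were called in these comparisons, so that the 4 of 12 called with TGFB were near the share of all rows. CCND1, the cyclin D1 gene, rose from 41.9 ± 1.36 CPM in PBS to 228 ± 12.5 CPM with EGF (2.44 ± 0.14). With OSM it stood at 40.4 ± 9.35 CPM (-0.05 ± 0.13, adjusted p 0.75), and OSM against EGF gave -2.49 ± 0.14. CDK2, the partner of cyclins E and A, rose with EGF (2.41 ± 0.09), OSM (1.94 ± 0.09) and TGFB (0.64 ± 0.09). CDKN1A, which encodes p21, and CDKN1C, which encodes p57, fell with EGF (-1.05 and -3.20) and OSM (-0.92 and -4.03). In TGFB alone CDKN1A did not pass (0.13 ± 0.12). TGFB added to EGF raised 4 of the 12 and lowered 5, and 3 did not pass, where 25.8% of all rows were higher and 26.4% lower. Among these, CDKN1A rose by 0.99 ± 0.12 on the log2 scale, and CDK4 (-1.13 ± 0.08), a kinase partner of the D cyclins, fell.

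Across the 27 libraries the log2 levels of the family fell into patterns that are described here without a test, since the libraries of a group are not independent of its treatment. RBL1 and E2F1 had a Pearson r of 0.968, RB1 and E2F3 0.962, and E2F7 and E2F3 0.962. E2F2 had its highest r with E2F5 (0.695) and its lowest with RB1 (0.0527). RBL2 was negative with 8 of the other genes, most with RB1 (-0.907), and positive with E2F2 (0.147). The tested genes most like each member, E2F4 aside, were by this measure C11orf98, CENPN and ARIH2 for E2F1 (r from 0.972 to 0.973) and MIPEP, TARBP1 and MRPL4 for E2F2 (0.960 to 0.973). E2F3 was nearest to UBE2N, TAF5L and DNTTIP2 (0.983 to 0.985), E2F5 to WDR43, AGPAT5 and NUFIP1 (0.949 to 0.952) and RB1 to FAR1, UBE2N and NUS1 (0.976 to 0.986). For E2F7 they were TUBA1B, TUBB4B and CLSPN (0.984 to 0.991), for E2F8 ESPL1, POLD2 and ANP32E (0.975 to 0.978) and for RBL1 UBE2S, DSCC1 and TMPO (0.992 to 0.993). For RBL2 they were LETMD1, POLR1D and VWDE (0.972 to 0.982).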

How the data were processed

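Polyadenylated RNA from 27 MCF10A libraries was sequenced after a stranded library preparation, per the labels' protocols. The submitters' processing notes name Trim Galore 0.4.3, cutadapt 1.10, FastQC 0.11.5, kallisto 0.46.2, R 3.5.0 and the builds GRCh38.p5 and hg38, without their settings. The deposited values were treated as estimated counts per Ensembl gene. They were whole numbers already, so rounding changed nothing. Rows without a symbol took 0.324% of the counts and stayed in the tests.

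Samples were grouped by their titles. The 10 genes, the pathway lists and the tests were chosen with earlier results of these data known. Rows sharing a symbol of the 10 genes were summed. Counts were filtered with filterByExpr by group, scaled with TMM factors and fitted with edgeR 4.0.16 (R 4.3.3; glmQLFit with robust estimation, a mean per group, 18 residual degrees of freedom, biological coefficient of variation 10.1%). Each contrast used glmQLFTest, edgeR's quasi-likelihood test. P-values were adjusted by Benjamini-Hochberg over all 16610 rows, and a row was called under 0.05. The test was also run on simulated counts with few rows changed and libraries drawn independently. That run does not cover changes as wide as those here or effects shared by libraries. CPM used TMM-scaled library sizes, and per kb the canonical transcript of GENCODE 44 on GRCh38, whose gene spans are given as coordinates. Totals of 30.1 to 52.9 M (mega) counts leave replicate spread, more than counting error, as the limit of most values.

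All 10 genes were named, and for each the 3 tested genes with the highest Pearson r over the 27 libraries, except those for E2F4, which are not reported here. The list of apoptosis genes is reported in part, without its counts. From each pathway list the rule named the 2 called genes with the highest and the 2 with the lowest log2 fold change for each single ligand; examples of these are printed, and any other value of a listed gene was singled out after it was seen. Alternatives were DESeq2 1.42.0, upper-quartile scaling, no low-count filter, summing all rows that share a symbol, fitting only the groups compared, a replicate block and leaving out each library.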

Additional observations from a re-analysis of the deposited data

How the results depend on the processing

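Of 2340 values of the 10 genes under the alternatives, 2237 kept their direction and their side of the threshold, 45 were no longer called, 27 became called and 31 changed sign. All 120 values each of EGF against PBS, EGF+TGFB against PBS, EGF against T0 and EGF+OSM against OSM kept direction and call. Those that changed sign were differences close to 0 that did not pass in either fit, and their cause was not tested.

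The count of the 10 genes called moved when single libraries were left out, to between 3 and 6 for PBS against T0 (5 with all libraries), 2 and 4 for EGF+OSM against EGF (5), and 2 and 7 for the departure of EGF and TGFB (4). The replicate numbers are not said to pair the libraries. Deviations of same-numbered libraries had correlations of -0.0529 to 0.158, over 0.1 in 10 of 108 pairs. Still, 25 of 27 libraries were closest to their own number, and the main fit had no term for that number. With the replicate block the departure of OSM and TGFB called 5 genes instead of 3, adding E2F2 (-0.59) and E2F3 (-0.22). The block also made calls of E2F2 (-0.59, adjusted p 0.00934) and E2F3 (-0.23, 0.0202) in the departure of EGF and TGFB, and of E2F3 (-0.19, 0.00931) and RB1 (-0.16, 0.0253) in PBS against T0. It did so for E2F3 in TGFB against PBS (0.17, 0.0202), E2F7 in EGF+OSM against EGF (0.27, 0.0273), and E2F5 in OSM (0.34, 0.0475) and OSM+TGFB (-0.35, 0.042) against PBS. It changed no other call of the 10 genes. Taking 1 of the identical rows of E2F2, an alternative chosen after seeing the data, lowered its level and raised the ratios over it and the share of E2F4 among the E2F genes.

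Under upper-quartile scaling E2F5 changed sign for the 3 ligands against PBS (-0.073), and RB1 for the departure of OSM and TGFB (0.0094). That scaling put the median of all rows for EGF against PBS at -0.15, where TMM gave -0.07. RB1 also changed sign in that departure with DESeq2 (0.0048), without the low-count filter (0.013) and with the compared groups alone (0.016), and in that of EGF and TGFB without the filter (0.013). With the compared groups alone E2F5 gave -0.0046 for the 3 ligands against PBS, and RBL2 gave -0.00089 for EGF+OSM against EGF. Leaving out 1 library at a time gave ranges that cross 0 for E2F4 (-0.057 to 0.0011) and RBL1 (-0.011 to 0.13) in TGFB against PBS, and for E2F5 in the 3 ligands against PBS (-0.20 to 0.14). They did so for E2F1 in EGF+OSM against EGF (-0.091 to 0.066), for RB1 in EGF+TGFB against EGF (-0.063 to 0.051), and for RB1 (-0.039 to 0.11) and E2F3 (-0.14 to 0.029) in OSM+TGFB against OSM. Among departures they did so for E2F8 (-0.11 to 0.39) and RB1 (-0.11 to 0.0023) with EGF and TGFB, and for E2F8 (-0.38 to 0.10) and RB1 (-0.089 to 0.060) with OSM and TGFB.

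At these depths the least abundant values, those of E2F8 with TGFB, rest on 24 to 41 counts, and counting error is a lower limit since no molecular identifiers are recorded. No count over all rows moved by more than 1.5 times.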

Other observations

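The values of 5 apoptosis genes known as E2F1 targets follow. Other genes of that list are not reported here, so these 5 do not describe it, and 70.8% of all rows were called with EGF. PMAIP1 (1.42 ± 0.15, log2 fold change ± SE) and APAF1 (0.94 ± 0.09) were higher, and TP73 (-2.52 ± 0.29), BCL2L11 (-2.08 ± 0.13) and BBC3 (-1.73 ± 0.26) were lower with EGF. APAF1, which forms the apoptosome, went from 13.1 ± 0.539 CPM in PBS to 25.2 ± 1.21 in EGF (SD, n = 3). TP73, which encodes the p53 relative p73, rose with OSM (1.07 ± 0.25) and fell with TGFB (-1.15 ± 0.27). OSM+TGFB against OSM lowered TP73 by 1.99 on the log2 scale. In PBS, TP73, BCL2L11 and BBC3 stood at 6.52 ± 0.527, 86.9 ± 4.67 and 7.21 ± 0.745 CPM.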
